A study of Mus musculus with 38 samples.

Results

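The transforming growth factor beta (TGF-beta) genes described here are 10 rows of the deposited expression tables, chosen by symbol: the ligands Tgfb1, Tgfb2 and Tgfb3, the receptors Tgfbr1, Tgfbr2 and Tgfbr3, the latency proteins Ltbp1, Ltbp2 and Ltbp3, and Ctgf, the connective tissue growth factor gene whose current symbol is Ccn2. They are 10 of 29564 genes listed, and all 10 were among the 13765 genes that passed the filter on low counts. RNA was measured by bulk sequencing of left ventricle homogenates from 38 wild-type C57BL6 mice, with 1 library per mouse. Healthy hearts with vehicle treatment made up 1 group (non_failing, n = 8). The other mice had HFpEF, heart failure in which the ejection fraction is preserved, and received vehicle (HFpEF+Veh, n = 8), the HDAC6 deacetylase inhibitor TYA-018 (HFpEF+TYA-018, n = 11) or empagliflozin, a blocker of renal glucose uptake by SGLT2 (HFpEF+SGLT2i, n = 11). HFpEF was produced by a high-fat diet together with L-NAME, a blocker of nitric oxide synthase, so the 3 HFpEF groups share both insults and the drugs were given on top of them. The labels state no age and call the mice female, while the study's methods describe males. The groups are called non-failing, vehicle, TYA-018 and empagliflozin below, and libraries are named by the mouse number of the sample titles.

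TGF-beta is secreted as a latent complex. The mature ligand stays bound to its own propeptide, and a latent TGF-beta binding protein (LTBP) ties that complex to fibrillin and fibronectin fibres of the matrix until integrins or proteases release it. The freed ligand binds the type II receptor TGFBR2, which activates the type I receptor TGFBR1, and betaglycan (TGFBR3) presents ligand to them, TGF-beta 2 above all. SMAD proteins then carry the signal to the nucleus. In the heart this pathway is known for turning resident fibroblasts into matrix-producing myofibroblasts, and CTGF is one of its classical target genes there, although CTGF also answers to mechanical load through YAP and TEAD.

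Among these genes Ltbp2, Tgfbr1, Ltbp1 and Ltbp3 passed the test in at least 1 comparison, and the sequence just before each of these genes is shown because the measurements below turn on them. The bases are from RefSeq on GRCm38.p6, in the gene's reading direction, and end before the gene as either annotation draws it. Capitals mark CAGAC on either strand, the core of the motif that SMAD proteins bind.
Tgfbr1, chr4:47352972-47353221, plus strand: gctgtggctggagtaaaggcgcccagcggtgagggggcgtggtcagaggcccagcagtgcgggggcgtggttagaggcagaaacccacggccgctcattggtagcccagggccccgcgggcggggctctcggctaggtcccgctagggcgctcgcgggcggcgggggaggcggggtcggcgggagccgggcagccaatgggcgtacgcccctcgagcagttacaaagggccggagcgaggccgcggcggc
Ltbp1, chr17:75005279-75005479, plus strand: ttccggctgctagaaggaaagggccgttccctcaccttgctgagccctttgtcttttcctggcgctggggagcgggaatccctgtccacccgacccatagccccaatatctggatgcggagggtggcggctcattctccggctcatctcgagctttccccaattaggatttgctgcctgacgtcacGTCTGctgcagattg
Ltbp2, chr12:84876559-84876741, minus strand: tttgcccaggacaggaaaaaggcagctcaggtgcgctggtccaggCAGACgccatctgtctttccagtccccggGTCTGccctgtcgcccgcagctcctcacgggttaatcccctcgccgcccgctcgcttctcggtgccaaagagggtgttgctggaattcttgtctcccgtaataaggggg
Ltbp3, chr19:5740650-5740899, plus strand: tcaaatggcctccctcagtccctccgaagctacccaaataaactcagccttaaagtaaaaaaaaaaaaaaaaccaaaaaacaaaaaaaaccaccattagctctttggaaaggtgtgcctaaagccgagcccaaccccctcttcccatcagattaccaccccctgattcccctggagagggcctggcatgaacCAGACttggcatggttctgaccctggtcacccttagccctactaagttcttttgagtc
The Ltbp2 stretch held 2 such matches, those of Ltbp1 and Ltbp3 held 1 each, and that of Tgfbr1 held 0 while 74.8% of its bases were G or C. Windows of 250 bases before an annotated start were matched for 7 of the 10 genes, as 9 windows. Tgfb3, Tgfbr3 and Ctgf were not matched. CAGAC occurred in 7 of those 9 windows and in 42.2% of all 32851 such windows of the genome. The TEAD motif GGAATG occurred in 0 of these 9, which hold none of Ctgf, and in 12.6% of all windows, the GC box GGGCGG in 3 of 9 and in 32.7%, and TATAAA in 1 of 9 and in 12.4%. These motifs were searched on both strands and none contains another, and a match is a description of the letters, not a binding site.

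In units of 1000000 counts, libraries held between 21.5 and 59.3 with a median of 29.5, and group medians lay between 28.8 and 29.8. The heart muscle markers (6 genes) were high in every library, with a summed level of 15130 to 30188 CPM (counts per 1000000). Every library thus held heart muscle, while the chamber it came from was not checked. The 4 adipocyte markers summed to at most 0.598 CPM. A pair of vehicle libraries stood apart. The hepatocyte markers (7 genes) summed to 1564 CPM in V2523 against a vehicle median of 5.93 CPM. Among vehicle libraries V2530 had the lowest sum of heart muscle markers at 18672 CPM, the lowest sum of pericyte and smooth muscle markers at 573 CPM and the highest macrophage sum at 202 CPM (5 markers). The log2 differences from vehicle are therefore also given without both, and without V2530 alone where that library moved a value by more than 1.5 times. Other single libraries moved 27 of the 60 values (10 genes in 6 comparisons) by more than 1.5 times, none of them past the threshold and all at most 0.19 in size on the log2 scale. Outside the vehicle group, the empagliflozin library V2571 had the lowest heart muscle sum of all libraries, 15130 CPM. It also had the highest endothelial sum of all, 1384 CPM (6 markers). Hepatocyte markers also differed by group, with sums of 27.2 to 384 CPM in non-failing and 0.871 to 4.05 CPM in TYA-018 libraries, and their part in the results was not tested.

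Levels are first given in TPM (transcripts per 1000000), which allow for gene length and so can be compared between genes. Over all 38 libraries Ctgf was the most abundant of the 10, with a mean of 40.8 TPM and a range of 19.0 to 83.0. Tgfb1 followed at 15.1 TPM (10.7 to 21.0), and then Ltbp1 at 6.79 TPM (4.88 to 8.53). The mean levels of the middle genes were 4.62 TPM for Tgfb3, 4.51 for Tgfbr3 and 3.90 for Tgfbr2. Tgfbr1 at 2.44 TPM, Ltbp3 at 2.27 and Tgfb2 at 2.08 were close to each other, and Ltbp2 was the scarcest at 0.515 TPM. Ranges of neighbours in this order overlapped for every pair except Tgfb1 and Ltbp1. Ltbp2 was also the most variable, with a highest library 16.0 times the lowest (0.168 and 2.69 TPM), while Ltbp1 spanned 1.75 times. The expected counts behind these levels ran from 41 to 623 for Ltbp2 and from 1412 to 6264 for Ctgf, so Ltbp2 rests on the fewest reads.

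**Figure D1:**
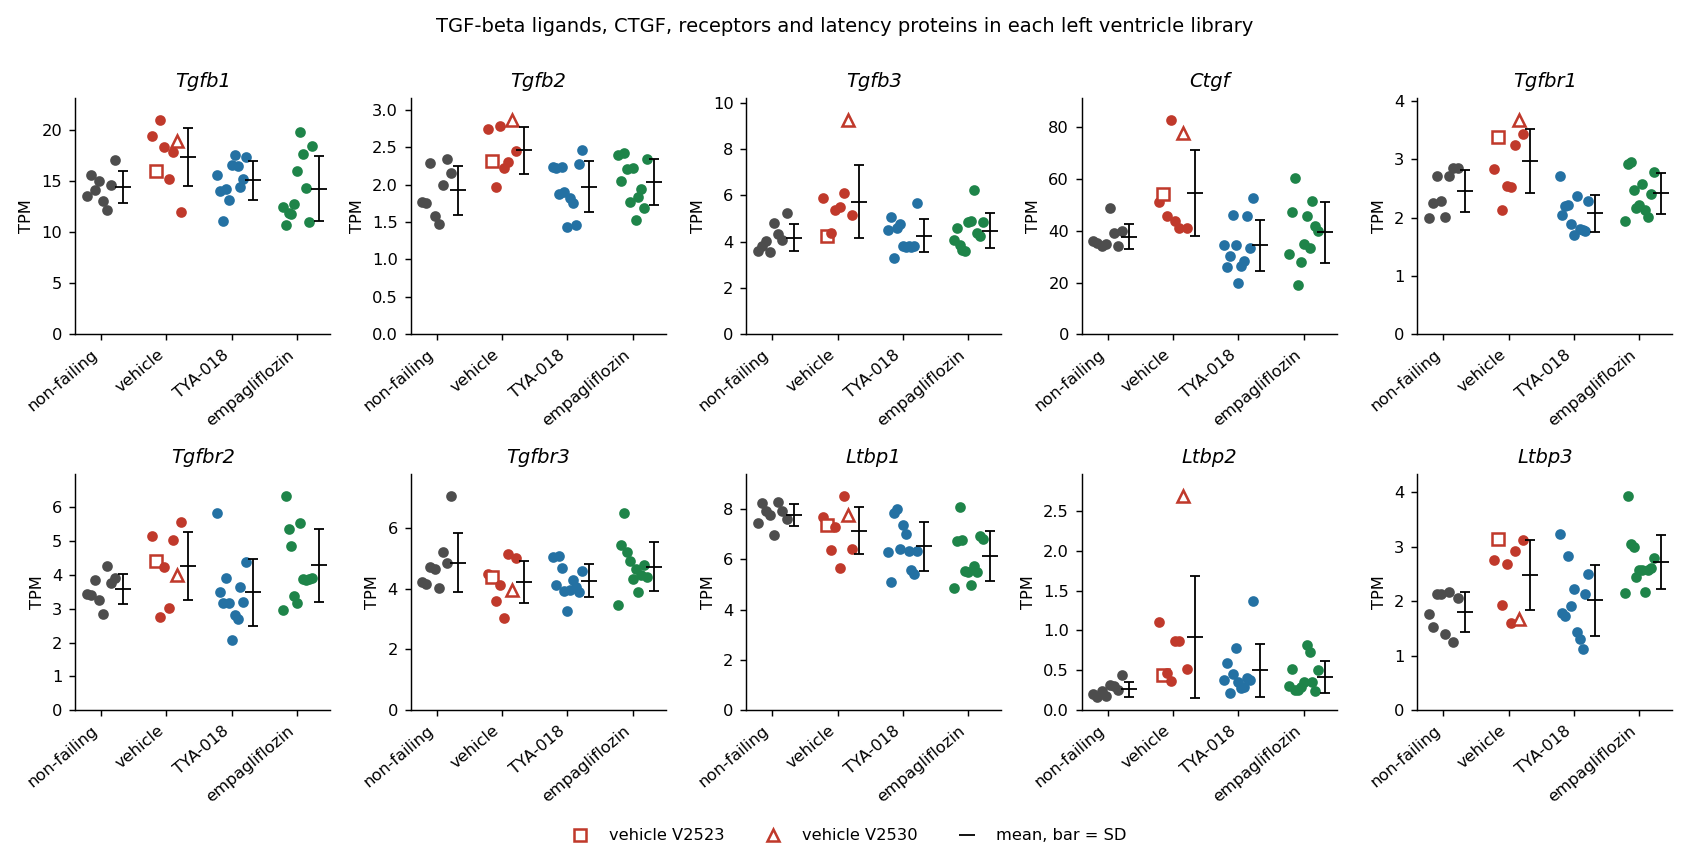
Level in TPM (vertical axes, linear and starting at 0) of the 10 genes in each library (points) of the 4 groups (horizontal axes), with the mean and SD of each group beside the points; the vehicle libraries V2523 and V2530 have open symbols. V2530 is the highest vehicle library for Tgfb2, Tgfb3, Tgfbr1 and Ltbp2, at 2.69 TPM for Ltbp2 against at most 0.447 TPM in non-failing hearts.

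The first comparison asked how vehicle-treated HFpEF hearts differ from non-failing ones. Ltbp2, a matrix protein of the LTBP family that binds fibrillin but not latent TGF-beta itself, rose 3.18-fold in vehicle hearts, and it was the 1 gene of the 10 that passed. The ligand genes Tgfb2 and Tgfb3, the type I receptor, Ltbp3 and Ctgf had higher fitted levels by 16.4% to 32.7% without passing, and Tgfbr3 and Ltbp1 had lower ones. In these homogenates more RNA per cell and more cells of a type cannot be told apart, here or in any comparison below. Of the 10 genes 1 passed at an adjusted p under 0.05 (edgeR's quasi-likelihood test with Benjamini-Hochberg adjustment over all genes), where 3.15% of all genes tested did. At an unadjusted p under 0.05 there were 8 of 10, with 6 higher and 2 lower, where 15.9% of all genes were. The median log2 fold change of the 10 was 0.27, and that of all genes was 0.01.

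Ltbp2 (chr12:84783212-84876532, minus strand, GRCm38) was measured at 0.168, 0.179, 0.204, 0.241, 0.251, 0.310, 0.323 and 0.447 TPM in the 8 non-failing hearts. In the vehicle hearts it was at 0.365, 0.438, 0.463, 0.522, 0.862, 0.874, 1.1 and 2.69 TPM, the last being V2530. All vehicle libraries lay above the non-failing mean in CPM, 6 of 8 lay above every non-failing library, and the lowest vehicle libraries overlapped the highest non-failing one. The log2 fold change was 1.67 (SE 0.35, adjusted p 0.00387, edgeR, n = 8 and 8). With V2530 left out it fell to 1.14 with an adjusted p of 0.0253, and with V2523 and V2530 both left out it was 1.22 with an adjusted p of 0.0170. On the log2(TPM + 1) scale, which understates changes of scarce genes, the difference was 0.52 (limma, adjusted p 0.0239).

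The ligand genes stood closer together. Tgfb2 (chr1:186622792-186705989, minus strand) ranged from 1.47 to 2.35 TPM in non-failing hearts with a median of 1.89, and from 1.97 to 2.87 TPM in vehicle hearts with a median of 2.38. Tgfb3 (chr12:86056745-86079041, minus strand) ranged from 3.57 to 5.24 TPM with a median of 4.06, and from 4.27 to 9.27 TPM with a median of 5.43. All 8 vehicle libraries lay above the non-failing mean for Tgfb2 and 7 of 8 did for Tgfb3, both in CPM, with overlapping groups. The log2 fold changes were 0.31 for Tgfb2 (SE 0.10, adjusted p 0.0964) and 0.35 for Tgfb3 (SE 0.13, adjusted p 0.15). The Tgfb3 difference was 0.22 (adjusted p 0.417) without V2530 alone, and 0.28 when V2523, the vehicle library lowest in Tgfb3 TPM, was left out with it. Tgfb1 (chr7:25687002-25705077, plus strand), the ligand with the highest level, went from a median of 14.4 TPM (12.2 to 17.0) to 18.0 TPM (11.98 to 20.96). Its vehicle range enclosed the non-failing range, and the log2 fold change in counts was 0.11 (SE 0.10, adjusted p 0.622), or 0.060 without V2526.

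Of the receptors, Tgfbr1 (chr4:47353222-47414931, plus strand) had a non-failing range of 1.99 to 2.85 TPM and a vehicle range of 2.13 to 3.68 TPM, with 4 vehicle libraries above every non-failing one. Its log2 fold change was 0.22 (SE 0.09, adjusted p 0.224), and 0.13 without V2523 and V2530. The gene for betaglycan, Tgfbr3 (chr5:107106570-107289629, minus strand), lay lower in vehicle hearts, at 3.04 to 5.12 TPM against 4.00 to 7.05 TPM. All 8 vehicle libraries were below the non-failing mean in CPM, and the log2 fold change was -0.27 (SE 0.09, adjusted p 0.114). Tgfbr2 (chr9:116084293-116175360, minus strand) spread from 2.76 to 5.54 TPM in vehicle hearts and from 2.84 to 4.26 TPM in non-failing ones, so its vehicle range enclosed the other, with a log2 difference of 0.17 (SE 0.11, adjusted p 0.459).

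Ltbp1 (chr17:75005568-75392512, plus strand) and Ltbp3 (chr19:5740904-5758532, plus strand) encode LTBPs that do bind latent TGF-beta, and their means moved in opposite directions. Ltbp1 was at 6.94 to 8.29 TPM in non-failing and 5.66 to 8.53 TPM in vehicle hearts, with all 8 vehicle libraries below the non-failing mean in CPM and a log2 difference of -0.21 (SE 0.10, adjusted p 0.289). Ltbp3 was at 1.25 to 2.17 TPM and 1.599 to 3.135 TPM, with 5 of 8 vehicle libraries above every non-failing one and a log2 difference of 0.35 (SE 0.16, adjusted p 0.291). Ctgf (chr10:24595442-24598683, plus strand) was at 34.0 to 48.7 TPM with a median of 35.7 in non-failing hearts and at 41.1 to 83.0 TPM with a median of 48.4 in vehicle hearts. V2527 at 83.0 TPM and V2530 at 77.6 TPM stood well above the other vehicle hearts, which reached 54.1 TPM. The log2 fold change of Ctgf was 0.41 (SE 0.19, adjusted p 0.272), and 0.31 without V2523 and V2530. Without both libraries the remaining values against non-failing were 0.11 for Tgfb1, 0.29 for Tgfb2, 0.17 for Tgfbr2, -0.26 for Tgfbr3, -0.21 for Ltbp1 and 0.37 for Ltbp3.

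**Figure D2:**
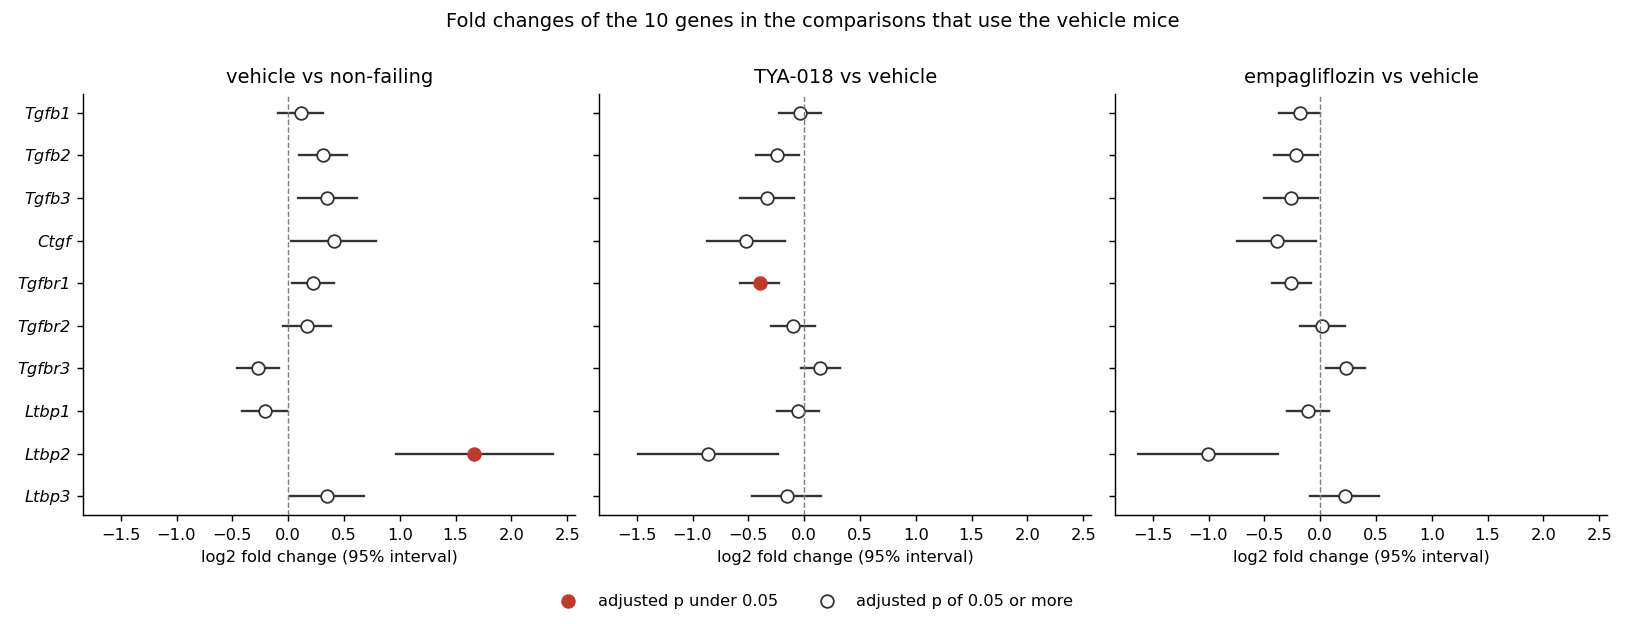
Log2 fold change of each gene (points) with its 95% interval (lines) in the comparisons of vehicle with non-failing, TYA-018 with vehicle and empagliflozin with vehicle hearts; filled points passed at an adjusted p under 0.05. Ltbp2 passed in the first panel at 1.67 and Tgfbr1 in the second at -0.40, and 0 genes passed in the third.

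Cell type markers were read beside these values. From non-failing to vehicle hearts the 6 heart muscle markers were all lower, with Tnnt2 and Tnni3 passing, and their sums were 22978 to 30188 CPM in non-failing and 18672 to 24424 CPM in vehicle hearts. Of 7 fibroblast markers 5 were higher, Lum and Pdgfra passed, and the sums were 834 to 1278 CPM and 709 to 1702 CPM. Of 6 pericyte and smooth muscle markers 3 were lower, Rgs5 and Abcc9 passed as lower, and the sums were 736 to 959 CPM and 573 to 757 CPM. None of these 3 lists had a marker at 0 in every library of either group. Of 4 mesothelial markers tested 3 were lower, all 3 at an unadjusted p under 0.05 and 0 passing, with a median log2 fold change of -2.13. The sums of all 5 were 7.16 to 59.0 CPM in non-failing and 8.50 to 16.6 CPM in vehicle hearts, with 1 of the 5 at 0 in every vehicle library. The non-failing library V2502 had the 59.0 CPM, and V2503 was next at 22.8 CPM. Of 6 macrophage markers listed, 5 were matched by symbol. These 5 were all higher with a median of 0.26, 0 passed and 1 was at an unadjusted p under 0.05, and the sums were 91.1 to 157 CPM and 122 to 202 CPM. Adgre1, which the table holds under its older symbol Emr1, was at 0.51 (SE 0.18, adjusted p 0.117), and with it the sums were 93.2 to 161 CPM and 126 to 208 CPM. All 7 platelet markers were higher without passing, with a median log2 fold change of 0.39. The platelet sums were 18.0 to 142 CPM and 19.5 to 239 CPM, the highest in V2526. The part of all these markers in the differences of the 10 genes was not tested.

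TYA-018 was compared with vehicle to ask what HDAC6 inhibition did to these genes in HFpEF hearts. Tgfbr1, the kinase receptor that phosphorylates SMAD2 and SMAD3, fell by 24.1% with TYA-018, and it was the gene of the 10 that passed. Ctgf, Ltbp2, Tgfb3 and Tgfb2 had lower fitted levels, at 0.697-fold, 0.551-fold, 0.794-fold and 0.847-fold of vehicle, without passing. Tgfb1, Tgfbr2, Ltbp1 and Ltbp3 were at 0.898-fold to 0.973-fold, and Tgfbr3 was the 1 gene with a higher level, by 10.6%. Of the 10 genes 1 passed, where 1.93% of all genes tested did, and 5 of 10 were at an unadjusted p under 0.05, all lower, where 17.5% of all genes were. The median log2 fold change was -0.20 over the 10 and -0.01 over all genes. This comparison and the first share the 8 vehicle libraries, so a library that is high there pulls both.

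The vehicle values of Tgfbr1 were 2.13, 2.53, 2.54, 2.84, 3.24, 3.38, 3.43 and 3.68 TPM, the highest again being V2530. With TYA-018 the 11 hearts ranged from 1.71 to 2.71 TPM with a median of 2.04. In TPM 6 of 11 TYA-018 hearts lay below every vehicle heart, in CPM 8 of 11 did, and all 11 lay below the vehicle mean in CPM. The log2 fold change was -0.40 (SE 0.09, adjusted p 0.00727, edgeR, n = 11 and 8). It passed in each of 19 fits that left out 1 library, with adjusted p up to 0.0333. It was -0.31 with an adjusted p of 0.101 without V2523 and V2530, a fit in which 1 of 13871 genes passed. When only these groups were filtered and fitted (13281 genes tested), it was -0.40 with an adjusted p of 0.0570.

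Ctgf did not pass. TYA-018 hearts had 19.9 to 52.7 TPM with a median of 33.5, and 8 of 11 lay below every vehicle heart. The log2 fold change was -0.52 (SE 0.17, adjusted p 0.103), or -0.42 without V2523 and V2530. It passed with limma on log2(TPM + 1), at -0.66 with an adjusted p of 0.0422, on a scale where the median of all genes was -0.08. Ltbp2 had 0.213 to 1.37 TPM with a median of 0.378, and V2570 was the high library at 1.37. The log2 fold change of Ltbp2 was -0.86 (SE 0.31, adjusted p 0.127), and -0.41 without V2523 and V2530. It was -0.34 (adjusted p 0.597) without V2530 alone, so that 1 library carried much of its size.

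Tgfb3 in TYA-018 hearts was at 3.28 to 5.68 TPM with a median of 3.83, and 6 of 11 lay below every vehicle heart in TPM, 4 of 11 in CPM. Its log2 fold change was -0.33 (SE 0.12, adjusted p 0.132), -0.25 without both libraries and -0.20 (adjusted p 0.400) without V2530 alone. Tgfb2 was at 1.43 to 2.47 TPM with a median of 1.90, with 6 of 11 below every vehicle heart in TPM and also in CPM. Its log2 difference was -0.24 (SE 0.10, adjusted p 0.174). For both, 10 of 11 hearts were below the vehicle mean in CPM. The level of Tgfb1 was 11.1 to 17.5 TPM, its log2 fold change was -0.04 (SE 0.09, adjusted p 0.858), and its 95% interval ran from -0.23 to 0.15. Without V2530 alone the Tgfb1 value was -0.02 (adjusted p 0.940). Without both libraries the remaining values were -0.04 for Tgfb1, -0.22 for Tgfb2, -0.10 for Tgfbr2, 0.14 for Tgfbr3, -0.05 for Ltbp1 and -0.17 for Ltbp3. The Ltbp3 value with all libraries was -0.16, and -0.090 without V2532.

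Markers moved here too. With TYA-018 all 7 hepatocyte markers fell, with sums of 0.871 to 4.05 CPM against 2.78 to 1564 CPM in vehicle hearts, where the highest library after V2523 was at 38.2 CPM. The 6 endothelial markers were all lower without passing, with sums of 687 to 950 CPM against 767 to 1083 CPM, and 6 of 7 fibroblast markers were lower without passing, with sums of 624 to 1548 CPM against 709 to 1702 CPM. Of the heart muscle markers 5 of 6 were higher without passing, with sums of 20495 to 28006 CPM against 18672 to 24424 CPM. All 7 platelet markers were higher without passing, with a median log2 fold change of 0.69 and sums of 20.6 to 269 CPM against 19.5 to 239 CPM. The part of these markers in the fall of Tgfbr1 was not tested.

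Empagliflozin was compared with vehicle in the same way, and here Ltbp2, Ctgf, Tgfbr1 and the ligand genes had lower fitted levels, from 0.88-fold (Tgfb1) to 0.498-fold (Ltbp2), without passing. By edgeR 0 of the 10 genes passed, where 0.850% of all genes tested did. Of the 10, 6 were at an unadjusted p under 0.05, 5 lower and 1 higher, where 10% of all genes were. DESeq2, which called 117 of 13765 genes, also called 0 of the 10. Limma on either TPM scale called 0 of all genes here, so its result says nothing about these 10. The median log2 fold change of the 10 was -0.20, and that of all genes was 0.01. The same vehicle libraries serve as controls here as for TYA-018, so the values for the drugs are set side by side below with no count of shared directions.

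Ltbp2 with empagliflozin was at 0.241 to 0.816 TPM with a median of 0.350, and 7 of 11 hearts lay below every vehicle heart in TPM, 5 of 11 in CPM. The log2 fold change was -1.01 (SE 0.31, adjusted p 0.140), -0.56 without V2523 and V2530, and -0.48 (adjusted p 0.755) without V2530 alone. Tgfbr1 was at 1.95 to 2.96 TPM with a median of 2.40, all 11 hearts were below the vehicle mean in CPM, and the log2 fold change was -0.26 (SE 0.09, adjusted p 0.188), or -0.17 without both. Ctgf was at 19.0 to 60.6 TPM with a median of 40.1 and a log2 difference of -0.39 (SE 0.17, adjusted p 0.431). Ltbp2, Tgfbr1 and Ctgf thus lay under vehicle on average, with groups that overlapped.

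The ligand genes had log2 fold changes of -0.18 for Tgfb1 (adjusted p 0.506), -0.22 for Tgfb2 (adjusted p 0.425) and -0.26 for Tgfb3 (adjusted p 0.445) with empagliflozin. Without V2530 alone the Tgfb3 value was -0.13 (adjusted p 0.892). Tgfbr3 was the gene with a higher level at an unadjusted p under 0.05, at 3.46 to 6.47 TPM and a log2 difference of 0.23 (SE 0.09, adjusted p 0.279). Ltbp3 was at 2.15 to 3.94 TPM, with 10 of 11 hearts above the vehicle mean in CPM and a log2 difference of 0.22 (SE 0.15, adjusted p 0.662). Tgfbr2 and Ltbp1 had log2 fold changes of 0.02 and -0.11. Without V2523 and V2530 the values were -0.18 for Tgfb1, -0.20 for Tgfb2, -0.19 for Tgfb3, 0.02 for Tgfbr2, 0.22 for Tgfbr3, -0.11 for Ltbp1, 0.20 for Ltbp3 and -0.29 for Ctgf. Beside these values all 7 hepatocyte markers fell against vehicle, with sums of 1.38 to 14.6 CPM with empagliflozin. In vehicle hearts the sum was 1564 CPM in V2523 and 2.78 to 38.2 CPM in the other 7, which overlap empagliflozin. Without V2523 the genes called over the whole table went from 117 to 2. The 7 platelet markers were all lower than in vehicle hearts without passing, with a median log2 fold change of -0.36. The part of these markers in the results was not tested.

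**Figure D3:**
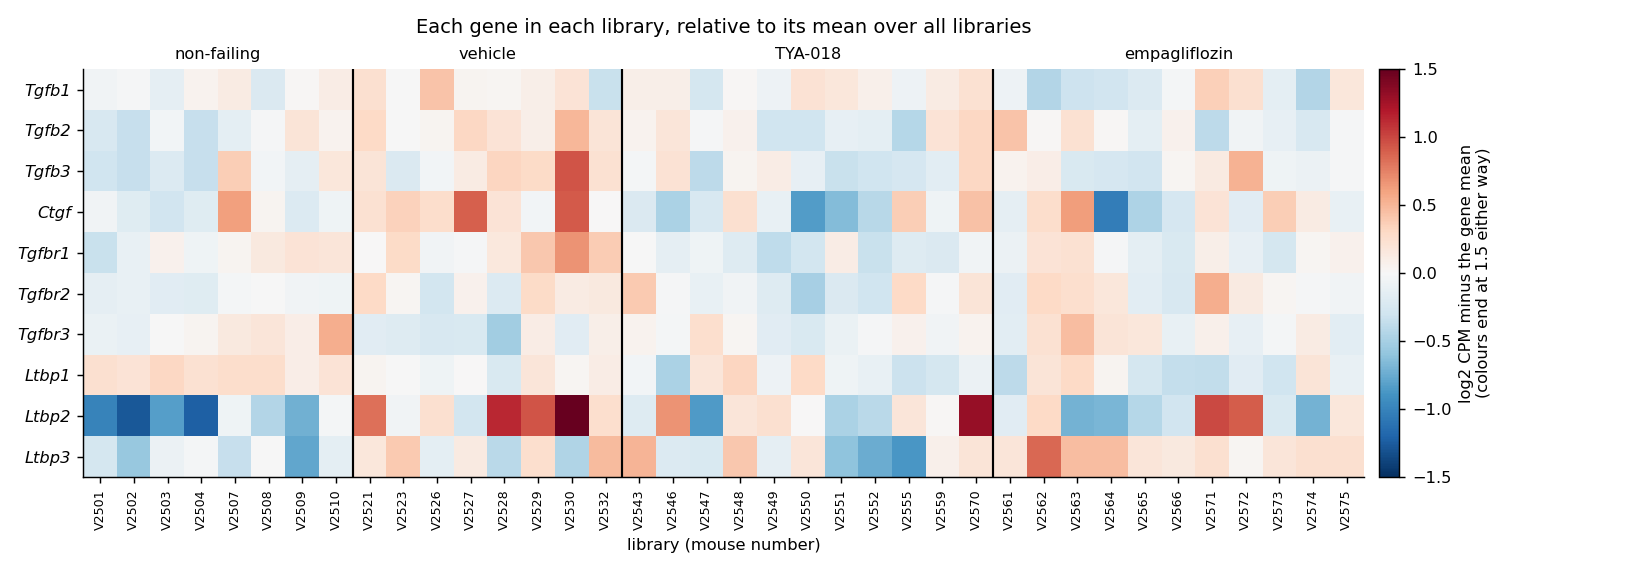
Each gene (rows) in each of the 38 libraries (columns, by group and mouse number) as log2 CPM minus the mean of that gene over all libraries; red is above and blue below the mean, with colours ending at 1.5 either way. Ltbp2 has the widest colours, low in most non-failing hearts and high in V2521, V2528, V2529 and V2530 of the vehicle group, V2570 of the TYA-018 group and V2571 and V2572 of the empagliflozin group, and Ltbp1 is above its mean in all 8 non-failing hearts.

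The drugs were then compared with each other, and 0 of the 10 genes passed by edgeR, where 0% of all genes tested did. At an unadjusted p under 0.05 there was 1 of 10 against 13.2% of all genes, and DESeq2, which called 187 genes in this comparison, also called 0 of the 10. That 1 gene was Ltbp3, with 1.12 to 3.23 TPM and a median of 1.92 with TYA-018 and 2.15 to 3.94 TPM and a median of 2.58 with empagliflozin. In TPM 7 of 11 TYA-018 hearts lay below every empagliflozin heart, in CPM 6 of 11 did, and the log2 fold change was -0.38 (SE 0.14, adjusted p 0.223). For Tgfbr1 the difference between the drugs was -0.14 with a 95% interval of -0.30 to 0.02, and for Ctgf it was -0.13 with an interval of -0.46 to 0.19, or -0.052 without V2563. The Ltbp2 difference was 0.14 with an interval of -0.44 to 0.73, the widest of the 10. The fall of Tgfbr1 against vehicle passed with TYA-018 and not with empagliflozin, and this direct comparison (adjusted p 0.467) did not show that the drugs differ for it. All 7 platelet markers were higher with TYA-018, with a median log2 fold change of 1.05. Of these 0 passed and 3 were at an unadjusted p under 0.05, and their part was not tested.

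**Figure D4:**
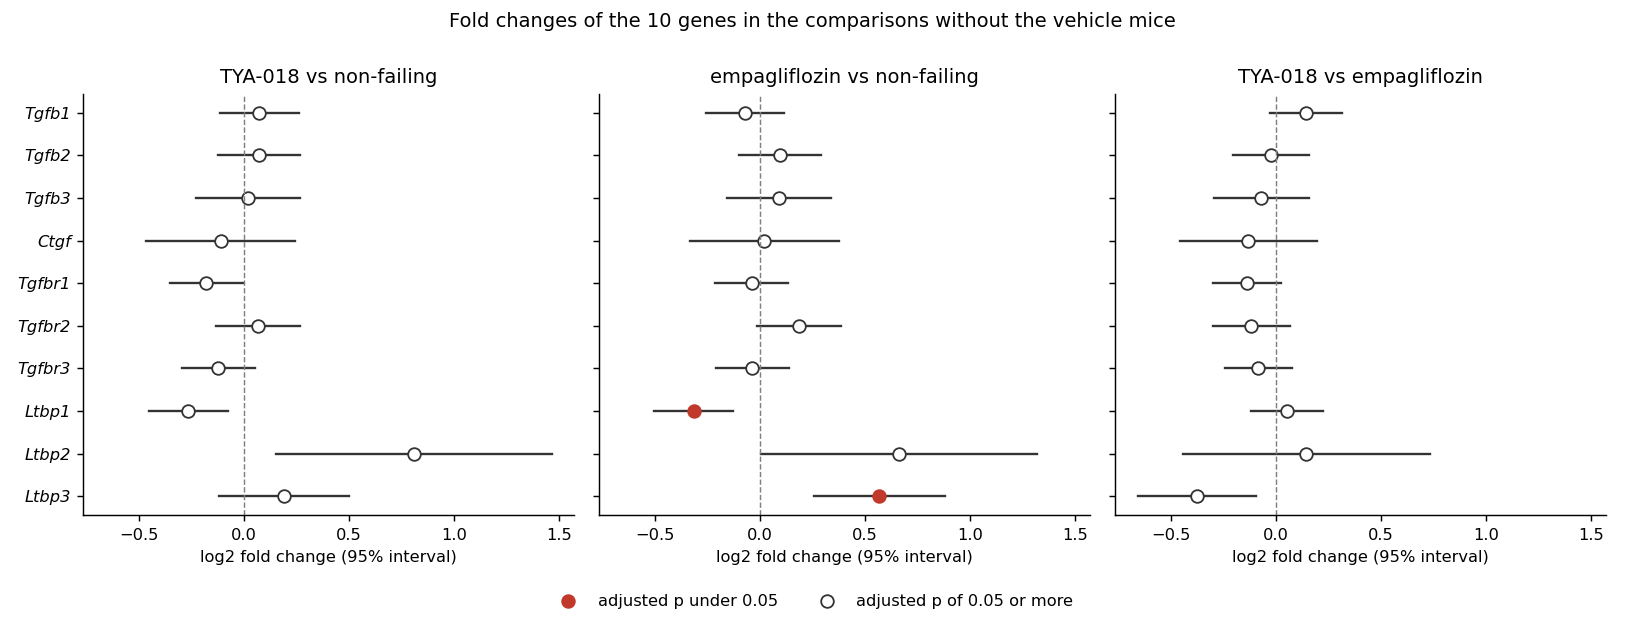
Log2 fold change of each gene (points) with its 95% interval (lines) for TYA-018 against non-failing, empagliflozin against non-failing and TYA-018 against empagliflozin hearts; filled points passed at an adjusted p under 0.05. Ltbp1 at -0.32 and Ltbp3 at 0.57 passed with empagliflozin, and 0 genes passed in the other panels.

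Treated HFpEF hearts were also set against non-failing hearts, a contrast that takes no level from the vehicle libraries, although they enter the shared estimate of spread. It joins HFpEF and the drug in 1 difference. In empagliflozin hearts Ltbp3 was 1.48-fold higher than in non-failing hearts and Ltbp1 was 19.7% lower, so the LTBP genes differed in both directions. Vehicle hearts were at 0.35 for Ltbp3 and -0.21 for Ltbp1 against non-failing (edgeR, adjusted p 0.291 and 0.289). Empagliflozin against vehicle was 0.22 for Ltbp3 and -0.11 for Ltbp1 (adjusted p 0.662 and 0.749). Of the 10 genes 2 passed, where 6.45% of all genes tested did, and 3 were at an unadjusted p under 0.05, where 19.6% of all genes were. Ltbp3 had a log2 difference of 0.57 (SE 0.15, adjusted p 0.0189, edgeR, n = 11 and 8), and all 11 empagliflozin hearts lay above every non-failing heart in CPM, 9 of 11 in TPM. Without V2509 its adjusted p was 0.0507. Ltbp1 was at 4.88 to 8.07 TPM with a median of 5.75 against a non-failing median of 7.82. In TPM 10 of 11 hearts lay below every non-failing heart, V2563 being the exception, and in CPM 8 of 11 did. Its log2 fold change was -0.32 (SE 0.09, adjusted p 0.0302), and it no longer passed in 6 of 19 fits that left out 1 library, with adjusted p up to 0.0592. Without V2571, the library with the lowest heart muscle sum, Ltbp1 was at -0.29 and did not pass. Beside these values all 7 hepatocyte markers were lower with empagliflozin and 6 passed, with a median log2 fold change of -5.90, and their sums of 1.38 to 14.6 CPM did not overlap the 27.2 to 384 CPM of non-failing hearts. Of 4 mesothelial markers tested 3 passed as lower with empagliflozin (Upk3b, Upk1b and Lrrn4), and 1 was higher. Sums of the 5 mesothelial markers were 6.23 to 20.3 CPM against 7.16 to 59.0 CPM in non-failing hearts. The 59.0 CPM was V2502, and the next non-failing library, V2503, was at 22.8 CPM. Of 6 heart muscle markers 4 were lower and 2 higher, and Tnnt2 and Tnni3 passed as lower. Of 7 fibroblast markers 6 were higher and 1 lower, with Pdgfra passing as higher and Tcf21 as lower. The part of these markers in the result was not tested.

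With TYA-018 0 of the 10 passed against non-failing by edgeR, where 7.39% of all genes tested did, and 3 were at an unadjusted p under 0.05, where 22.0% of all genes were. DESeq2, which called 1272 of 13765 genes, called 0 of the 10 as well. So did limma, which called 506 on log2(TPM + 1) and 591 on log2(TPM + 0.1). Ltbp1 came closest, with a log2 difference of -0.27 (SE 0.09, adjusted p 0.0724), and it passed when V2548 or V2550 was left out. Ltbp2 was 0.81 higher on the log2 scale (SE 0.32, adjusted p 0.124), with 10 of 11 hearts above the non-failing mean in CPM, and the empagliflozin value was 0.66 (SE 0.32, adjusted p 0.250). Tgfbr1 was 0.18 lower with TYA-018, with a log2 difference of -0.18 (SE 0.09, adjusted p 0.216). The other ligand, receptor and target genes lay within 0.19 of non-failing on the log2 scale under either drug, Ltbp3 with TYA-018 included. Both comparisons share the non-failing libraries. Beside the TYA-018 values all 7 hepatocyte markers passed as lower, with a median log2 fold change of -6.61. Of 4 mesothelial markers tested 3 were lower, all at an unadjusted p under 0.05 without passing, and 1 was higher. Of 6 pericyte and smooth muscle markers 3 were lower, 1 passing, and 3 were higher. Of 7 fibroblast markers 4 were higher, 1 passing, and 3 were lower. All 7 platelet markers were higher without passing. The part of these markers was not tested.

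How the 10 genes varied together was described over the 38 libraries, with no test, since libraries share their group and depth. Of 45 pairs 32 had a positive Pearson r of log2 CPM, with a median r of 0.20. The strongest pair was Tgfb3 and Ltbp2 at r = 0.87, and r was 0.89 after the group means were taken out. Tgfb2 and Tgfb3 had r = 0.51, and Tgfb1 and Tgfbr3 were the most opposed pair at r = -0.45. Among 10923 genes with an average log2 CPM of at least 1, those most like Ltbp2 were Cilp (r = 0.94), Postn (r = 0.91) and Serpinf1 (r = 0.88), which encode secreted proteins of the matrix or of fibroblasts. Ltbp2 itself was the gene most like Tgfb3, followed by Mfap4 (r = 0.79) and Itgbl1 (r = 0.77). Tgfb1 was nearest to Plscr3 (r = 0.80), Tgfbr2 to Ap2b1 (r = 0.78) and Emr1 (r = 0.77), and Tgfbr3 to Tmtc1 (r = 0.71). Emr1 is the macrophage surface gene now called Adgre1. The nearest genes were Ahnak2 for Tgfb2 (r = 0.64), Fyttd1 for Ltbp1 (r = 0.68), Hnrnpm for Ltbp3 (r = 0.78) and Tmbim1 for Ctgf (r = 0.60).

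The rest of the pathway was read from lists of 78 tested genes outside the 10. From non-failing to vehicle hearts 8 of the 78 rose and 1 fell, where 3.15% of all genes passed, with 50 higher and a median log2 fold change of 0.14. Of the target genes 12 of 13 were higher and 3 passed, with a median of 0.32. Adam12, a metalloprotease of activated fibroblasts, rose by 1.27 (SE 0.26, adjusted p 0.00296) on the log2 scale, and Postn, the gene for periostin, by 1.03 (adjusted p 0.0112). Adam12 was scarce, at mean levels of 0.0921 TPM in non-failing and 0.256 TPM in vehicle hearts. In the list of matrix partners of the latent complex 6 of 8 were higher and 2 passed, led by the small proteoglycan gene Bgn at 0.62 (SE 0.13, adjusted p 0.00296). Gdf15, a stress hormone of the wider family, rose by 1.28 (adjusted p 0.00383), and Pmepa1, a feedback inhibitor that TGF-beta induces, by 0.44 (adjusted p 0.0127). Of 8 signal transducers 0 passed by edgeR, and 1 had an unadjusted p under 0.05, while of 10 activators 0 passed and 0 had an unadjusted p under 0.05. When V2523 and V2530 were left out, 6 of 79 genes rose and 0 fell, and the 5 named here were among those that rose. Without V2530 alone Postn was at 0.78 (adjusted p 0.0531) and no longer passed, and the other 4 did. Without V2504, a non-failing library, 5 rose and 0 fell, and these 5 were the genes named here. Pmepa1 was at 0.43 (adjusted p 0.0632) when only these groups were fitted.

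With TYA-018 against vehicle 3 of the 78 fell and 0 rose, where 1.93% of all genes passed, with 60 lower and a median of -0.11. They were Tgfbi, a matrix protein named for its induction by TGF-beta, which fell by 0.81 (SE 0.21, adjusted p 0.0332) on the log2 scale, Gdf15, which fell by 0.92 (SE 0.24, adjusted p 0.0355), and the angiomotin-like gene Amotl1 of the YAP and TEAD list, which fell by 0.22 (SE 0.06, adjusted p 0.0480). Of the target genes 12 of 13 were lower, and of the matrix partners 8 of 8. None of these 3 passed without V2523 and V2530, when only these groups were fitted, or when V2530, V2547 or V2552 alone was left out. Without V2523 and V2530 the values were -0.77 for Tgfbi, -0.73 for Gdf15 and -0.26 for Amotl1, with adjusted p of 0.116, 0.161 and 0.0719. With only these groups fitted they were -0.81, -0.92 and -0.23, with adjusted p of 0.0598, 0.0899 and 0.0885. Over the 19 fits without 1 library they ranged from -0.91 to -0.74 for Tgfbi, from -1.06 to -0.78 for Gdf15 and from -0.26 to -0.20 for Amotl1, and the calls were lost in 9, 9 and 15 of these fits. With library size alone, which moved the median of all genes to -0.14, 10 of the 78 fell and 0 rose. Against vehicle the empagliflozin values were -0.26 for Tgfbi, -0.50 for Gdf15 and -0.08 for Amotl1, with adjusted p of 0.716, 0.473 and 0.696. With empagliflozin against vehicle 0 of the 78 passed by edgeR, 17 were at an unadjusted p under 0.05 where 10% of all genes were, and 58 were lower with a median of -0.10. Between the drugs 0 of the 78 passed, with 8 at an unadjusted p under 0.05 where 13.2% of all genes were.

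**Figure D5:**
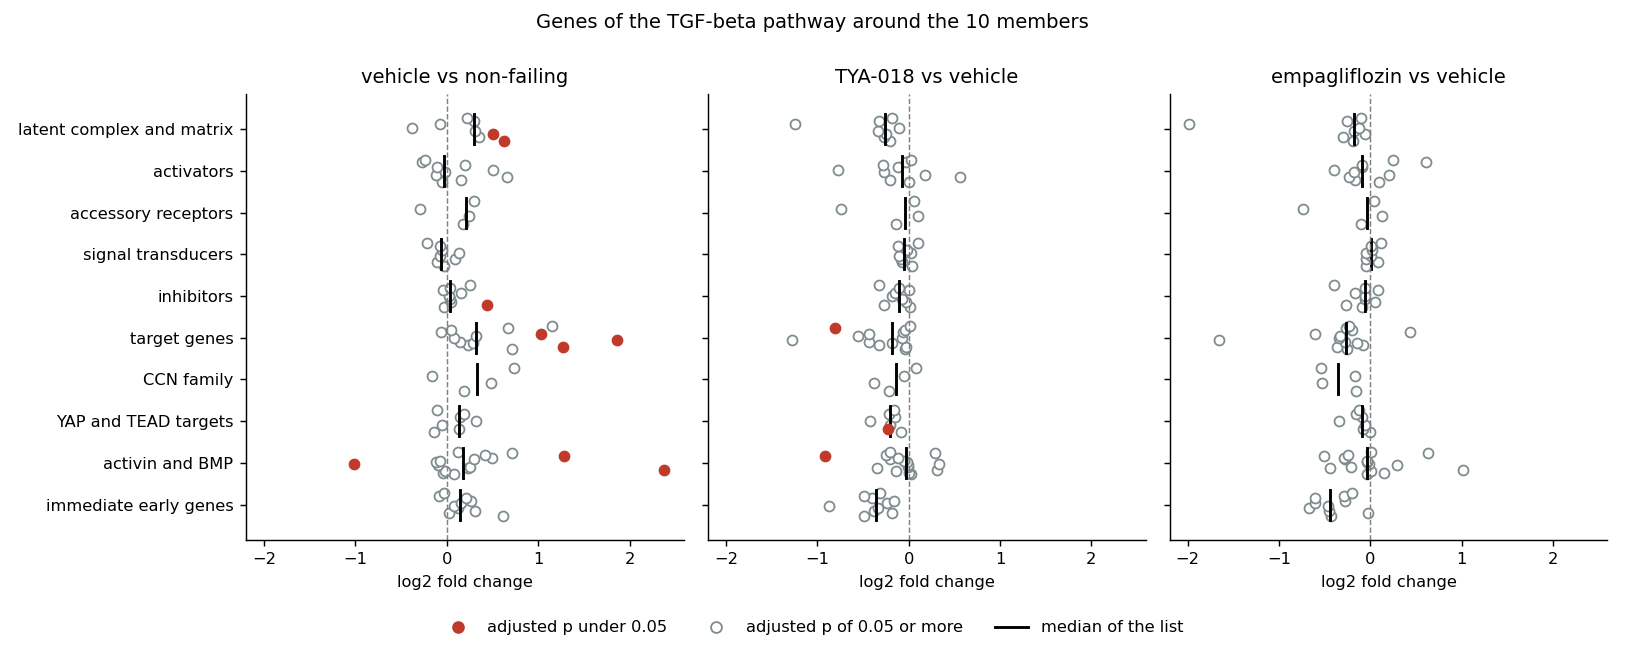
Log2 fold change (horizontal axes) of the tested genes of each pathway list outside the 10 (points, by list) in the comparisons of vehicle with non-failing, TYA-018 with vehicle and empagliflozin with vehicle hearts, with the list median as a bar; filled points passed at an adjusted p under 0.05. In the first panel 12 of 13 target genes lie above 0, and in the panels of TYA-018 and empagliflozin 12 of 13 lie below 0. The panels share the vehicle libraries, so these counts are not independent of each other.

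Against non-failing hearts 7 of the 78 were higher and 1 was lower with TYA-018, and 5 were higher and 3 lower with empagliflozin, where 7.39% and 6.45% of all genes passed. Adam12 was higher under both drugs, at 1.24 (adjusted p 0.000972) with TYA-018 and at 0.90 (adjusted p 0.0182) with empagliflozin, as was Bgn at 0.42 (adjusted p 0.0221) and 0.44 (adjusted p 0.0181). Bmp10, a bone morphogenetic protein gene of atrial muscle, was higher by 2.69 (adjusted p 0.00359) and 3.39 (adjusted p 0.000240) at mean levels of at most 0.106 TPM. Neither call of Bmp10 held with only the groups compared in the fit, and the TYA-018 call was also lost with limma on either TPM scale. Cd109, a co-receptor that restrains TGF-beta signalling, was lower by 1.03 under either drug, with adjusted p of 0.00459 and 0.00486. Its mean levels were 0.192 TPM with TYA-018, 0.202 TPM with empagliflozin and 0.397 TPM in non-failing hearts. Timp1, an inhibitor of matrix metalloproteases, was higher by 1.17 (adjusted p 0.0199) with TYA-018, and its value was 0.92 (adjusted p 0.0799) with empagliflozin. Inhbb, an activin subunit gene, was higher under both drugs, by 1.00 (adjusted p 0.0446) with TYA-018 and by 1.35 (adjusted p 0.00622) with empagliflozin. The TYA-018 call of Inhbb was lost in 11 of 19 fits without 1 library, with values of 0.74 to 1.08, and with no filter on low counts, library size alone and limma on either TPM scale, while the empagliflozin call passed in all of these. The matrix gene Emilin1 was higher by 0.45 (adjusted p 0.0176) with empagliflozin, with a TYA-018 value of 0.26 (adjusted p 0.189). Bmp7 was lower by 1.03 (adjusted p 0.0129) with empagliflozin, at 0.131 TPM against 0.272 TPM on average, with a TYA-018 value of -0.68 (adjusted p 0.111). None of these differences between the drugs was past the threshold in the direct comparison, in which 0 of the 78 passed. Against non-failing, vehicle hearts were at 2.38 for Bmp10 (edgeR, adjusted p 0.0252) and 0.50 for Emilin1 (adjusted p 0.0208). Their Bmp7 value was -1.01 (adjusted p 0.0423). These vehicle calls were lost in 4, 2 and 10 of 16 fits without 1 library. Cd109, Timp1 and Inhbb did not pass by edgeR in vehicle hearts. Treated against non-failing joins HFpEF and the drug. With TYA-018 the 7 higher genes became 3 without V2503 and 4 without V2502, V2504, V2508 or V2509, all non-failing libraries. The split of 7 higher and 1 lower became 3 and 3 with library size alone and 6 and 3 with only these groups fitted. The higher genes became 4 with no filter on low counts, and 1 and 3 with limma on log2(TPM + 1) and log2(TPM + 0.1). Bgn was lost without V2503 or V2504, with library size alone and with limma on either scale, while Adam12 and Cd109 passed in every one of these fits. With empagliflozin the 5 higher genes numbered 5 or 6 in the fits without 1 library and 3 with limma on log2(TPM + 1), and Adam12 was lost with limma on either scale. They numbered 7 with DESeq2, which also called Timp1 and Gdf15, and 6 with the length offset.

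The mean effective transcript length per gene, a deposited readout that moves when the mix of a gene's transcripts moves, was tested with limma. In 6 comparisons 0 of the 10 genes passed, where 10.5% of all genes tested passed in at least 1 comparison. Those genes all passed between TYA-018 and empagliflozin, where 6.94% of all genes were longer and the median log2 difference was -0.07, a shift of most of the table. The 10 genes lay between -0.15 (Ltbp1, adjusted p 0.0747) and 0.07 (Tgfbr2, adjusted p 0.132) there, with 5 at an unadjusted p under 0.05 where 40.5% of all genes were, and Tgfb3 came closest at -0.12 (adjusted p 0.0555). Using the lengths as an offset in the count test left Ltbp2, Tgfbr1, Ltbp1 and Ltbp3 called where they were called without it, and no others of the 10.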

How the data were processed

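RNA of 38 left ventricles was sequenced from poly(A)-selected, strand-specific libraries. Per the methods and labels, the authors trimmed reads with fastp, quantified transcripts with Salmon 1.6.0 and summed them to genes with tximport. They deposited a table of expected counts, which need not be whole, a table of TPM, scaled by the authors to transcript length and library total, and a table of effective transcript lengths in bases (other). The labels name the human build hg38 while the methods name the mouse build GRCm38, and the gene symbols are those of mouse. Labels and methods also differ on sex, read layout and treatment length. Every sample column was matched by mouse number, with 0 columns unmapped.

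The expected counts as deposited by the authors were rounded, filtered with filterByExpr (13765 of 29564 genes) and scaled by TMM. A quasi-likelihood test of edgeR 4.0.16 (R 4.3.3) was fitted over the 4 groups, with two-sided p-values adjusted by Benjamini-Hochberg over all genes in each of 6 comparisons, a call at an adjusted p under 0.05, and SE taken as the log2 fold change over the root of F. CPM are TMM-scaled. Lengths were tested with limma 3.58.1 on log2 values. Alternatives were DESeq2 1.42.0, RLE factors, library size alone, no filter, limma on log2(TPM + 1) and log2(TPM + 0.1), lengths as offset, only the groups compared, leaving out each library, and leaving out V2523 and V2530. The statistics were tested on simulated data first. Coordinates are GENCODE M21 on GRCm38.

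The 10 genes are all named. Pathway list genes are named where called, at most 5 per comparison by smallest p, with the value under the other drug beside each gene named for a drug. Vehicle values of Bmp10, Emilin1 and Bmp7 are given beside their drug values. The alternatives were applied to these pathway genes after their values were seen. Up to 3 genes most like each of the 10 came from Pearson r of log2 CPM (prior count 2) among genes averaging 1 or more in log2 CPM. The genes most like Tgfbr1 are not reported here. The members, lists and tests were chosen with earlier results of these data known. Mice were separate animals by number, and 166 pairs of libraries within groups all differed beyond counting noise (lowest chi-square 16.9 times its degrees of freedom).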

Additional observations from a re-analysis of the deposited data

Results flagged for a closer look

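The spread within the 2 groups of 8 was searched for single libraries far from the rest, in 20 tests of the 10 genes by Dixon's criterion at 95%, which chance alone meets in about 1 of 20 groups. The groups of 11 were not tested. There were 4 such values, 2 of them in the vehicle library V2530. Tgfb3 was at 9.27 TPM there, with the next vehicle library at 6.10 TPM, and Ltbp2 was at 2.69 TPM, with the next at 1.1 TPM. The same library had the lowest vehicle sum of heart muscle markers, 18672 CPM, and the highest vehicle sum of immediate early genes, 2375 CPM, whose part in these values was not tested. In non-failing hearts Tgfbr3 was at 7.05 TPM in V2510, with the next library at 5.20 TPM, and Ctgf was at 48.7 TPM in V2507, with the next at 39.8 TPM.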

How the results depend on the processing

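DESeq2, RLE factors and no filter on low counts left all 60 results (10 genes in 6 comparisons) in their direction and on their side of the threshold. Scaling by library size alone moved the median of all genes to -0.14 for TYA-018 against vehicle and to 0.08 for vehicle against non-failing, and the share of called genes that were higher from 43.2% to 2.28% and from 56.1% to 79.5%. Tested against 0, and so with that shift included, it called 5 of the 10 genes (Tgfb2, Tgfb3, Tgfbr1, Ltbp2 and Ctgf) for TYA-018 against vehicle, 2 (Tgfb2 and Ltbp2) for vehicle against non-failing and 1 (Ltbp3) for empagliflozin against non-failing. Limma on either TPM scale called 2 for vehicle against non-failing (Tgfb3 and Ltbp2) and 2 for TYA-018 against vehicle (Tgfbr1 and Ctgf). For TYA-018 against vehicle 0 were called when only those groups were fitted and 0 without V2523 and V2530. The Ltbp2 rise passed in 9 of 9 alternatives and in 16 of 16 fits without 1 library.

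Signs turned only for small values. With library size alone Tgfbr2 was -0.0630 (empagliflozin against vehicle) and Tgfb3 -0.0284 (TYA-018 against non-failing). That scaling moved the medians of all genes to -0.0705 and -0.0538 in these comparisons. Tgfbr2 for TYA-018 against non-failing was -0.0549 and -0.0759 with limma and -0.00868 with the length offset. Ltbp1 for TYA-018 against vehicle was 0.0103 with the length offset. Without 1 library, 0 to 1 of the 10 were called for TYA-018 and 1 to 2 for empagliflozin against non-failing. Ranges of such fits that crossed 0 were -0.0274 to 0.0874 for Tgfb3 with TYA-018 against non-failing, -0.0841 to 0.0362 for Tgfbr3 and -0.0599 to 0.123 for Ctgf with empagliflozin against non-failing, -0.0930 to 0.00942 for Tgfb1 with TYA-018 and -0.0364 to 0.0533 for Tgfbr2 with empagliflozin against vehicle, and -0.0636 to 0.0289 for Tgfb2 and -0.0412 to 0.282 for Ltbp2 between the drugs. The cause was not tested for any of these.

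Over all genes, calls for TYA-018 against vehicle went from 266 to 618 with no filter, 402 with DESeq2, 1096 with library size alone, 58 with only those groups and 1 without V2523 and V2530. For empagliflozin against vehicle they went from 117 to 457 with no filter, 3 with only those groups, and 0 with limma or without both libraries, and between the drugs from 0 to 187 with DESeq2 and 5 with the length offset. Ltbp2 rests on as few as 41 counts, so its low values are the least precise. No paired analysis was possible because mouse numbers are unique across the groups.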

Other observations

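Immediate early genes, 10 genes such as Fos and Egr1 that answer within minutes to stretch or stress, were higher for 8 of 10 in vehicle against non-failing hearts with a median log2 fold change of 0.14, where 0 passed by edgeR and 1 was at an unadjusted p under 0.05 against 15.9% of all genes. Against vehicle all 10 were lower with TYA-018 (median -0.36) and with empagliflozin (median -0.44), and 0 passed by edgeR in either. At an unadjusted p under 0.05 there were 3 with TYA-018, where 17.5% of all genes were, and 4 with empagliflozin, where 10% were. The drug comparisons share the vehicle libraries, and the summed level of these genes ranged from 1337 to 2375 CPM in vehicle hearts and from 1059 to 2062 CPM with TYA-018. With empagliflozin it ranged from 880.0 to 2680 CPM, with V2571 above every vehicle heart. The 7 YAP and TEAD target genes were lower for 7 of 7 with either drug against vehicle, with medians of -0.20 and -0.09. Amotl1 was the gene that passed with TYA-018, where 1.93% of all genes did, and its call was lost in 15 of 19 fits without 1 library. Of these 7 genes 4 were higher in vehicle against non-failing hearts, with 0 passing and 1 at an unadjusted p under 0.05, and all 7 were lower with TYA-018 against non-failing, with 0 passing and 2 at an unadjusted p under 0.05 where 22.0% of all genes were. In the CCN family, the genes related to Ctgf, 3 of 4 were higher in vehicle hearts (median 0.34), and 0 passed by edgeR with 2 at an unadjusted p under 0.05, where 15.9% of all genes were. Against vehicle 3 of the 4 were lower with TYA-018 (median -0.13, 1 at an unadjusted p under 0.05) and 4 of 4 with empagliflozin (median -0.35, 2 at an unadjusted p under 0.05), with 0 passing in either. With TYA-018 against non-failing Wisp2, named here after its value was seen, was higher by 0.81 (adjusted p 0.0454), a call that was lost in 15 of 19 fits without 1 library, and its empagliflozin value was 0.19 (adjusted p 0.744).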
